A study of Mus musculus with 24 samples.

Results

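The dependence of the hepatic fasting response on Ppara was followed across all genes as an interaction, that is, the change from fed to fasted in mice without hepatic Ppara minus the same change in mice with it. All 24 arrays of the 24 in the series entered, and they came from 22 animals, because 1 fed and 1 fasted WT mouse were each hybridised on 2 arrays that were averaged first. Liver RNA came from male C57Bl/6J mice aged 8 weeks, kept on Safe 04 chow in a cycle of 12 h light and 12 h dark and killed at ZT16. The groups were 5 fed and 5 fasted mice that carried Ppara in the liver (liver wild type, WT) and 6 fed and 6 fasted mice with a liver deletion of Ppara (LKO), fed freely or without food for 24 h. The series description counts 24 mice with 6 in each group, while the animal numbers in the labels give the 22 used here. The labels name neither the driver of the deletion nor the deleted part of the gene, and the deletion belongs to the liver, so that other tissues of the LKO mice still carried Ppara.

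PPARα, the product of Ppara, is a nuclear receptor that binds DNA together with RXR and is switched on by fatty acids. During a fast, fatty acids from adipose tissue reach the liver, where the receptor raises genes for their uptake, for their oxidation in mitochondria and peroxisomes, and for making ketone bodies. It has also been described as holding down inflammatory genes.

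The arrays were Agilent 1-colour Cy3 arrays. Levels are log2 signals relative to the 75th percentile of each array, so that a difference of 1 in level is a 2-fold change, and 17206 genes were tested. That percentile lay between 309.7 and 412.6 intensity units, and between 50% and 58.8% of probes were well above background. The 24 arrays lay on 3 slides of 8, each with 2 arrays of every group. The first principal component held 38.1% of the variance, and 98.9% of it lay between the groups. On component 3 the score of fed LKO replicate 3 was -57.27, while the rest of its group scored from 4.58 to 16.89, and its mean acute phase level was 6.62 against a fed LKO median of 4.94. Without it the interaction was called for 4003 genes rather than 3197.

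Ppara itself was read at 5.71, 5.55, 5.88, 5.97 and 6.07 in the fed WT mice and at 6.52, 6.53, 6.49, 6.60 and 6.26 in the fasted WT mice. In LKO its lowest, median and highest levels were 4.47, 5.26 and 5.51 when fed and 5.38, 5.65 and 5.72 when fasted. All LKO levels lay below those of WT mice in the same state. The interaction for Ppara was -0.21 (SE 0.20, adjusted p = 0.522 by limma), so the genotype difference was not shown to change with fasting. Signal remained in LKO at the probe on chromosome 15 (mm9, 85632110 to 85632169). Whether that probe lies in the deleted part is not given, and transcript from cells other than hepatocytes was not told apart.

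The interaction was called for 3197 genes, 18.6% of those tested (limma, Benjamini-Hochberg adjusted p below 0.05). It was positive, meaning a higher response in LKO, for 1290 genes (7.5%) and negative for 1907 (11.1%). This split depended on the scaling, with 1405 positive and 1208 negative when arrays were centred on their median, 1643 and 1571 after quantile normalization, and 1510 and 1479 in the authors' deposited log2 table. The median interaction over all genes was -0.04 as reported and 0.01 with median centring. An interaction of at least 2-fold was called for 547 genes (3.18%), with 247 positive (1.44%) and 300 negative (1.74%). Fasting alone was called for 7638 genes in WT (44.4%) and 8547 in LKO (49.7%).

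Genes were sorted by the calls in WT, in LKO and for the interaction. A rise called in WT, not called in LKO and differing between them was a lost rise, and 636 genes met this (3.7% of those tested). Lost falls numbered 332 (1.93%). A response called in both genotypes in the same direction but smaller in LKO was weakened, with 208 rises (1.21%) and 110 falls (0.639%). A response called in opposite directions was reversed, with 185 genes that rose in WT and fell in LKO (1.08%) and 130 that did the opposite (0.756%). A response called only in LKO and differing from WT was gained, with 512 rises (2.98%) and 656 falls (3.81%), and 191 rises (1.11%) and 195 falls (1.13%) were strengthened in LKO. The balance of gained responses turned with the scaling, to 583 rises and 386 falls with median centring, 638 and 499 after quantile normalization and 610 and 468 in the authors' deposited table.

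A response was counted as kept when both genotypes were called in the same direction, the interaction was not, and the 95% interval of the interaction lay within 1.5-fold. This held for 1469 rises (8.54%) and 1570 falls (9.12%). Another 4822 genes (28%) with a call in at least 1 genotype could not be placed, because their interaction was neither called nor narrow enough, and 6148 (35.7%) had no call. For the 4822, the median SE of the interaction was 0.17, against 0.11 for kept rises and 0.14 for lost rises. Of the 636 lost rises, 558 had an LKO response whose 95% interval lay within 1.5-fold of no change. The sign of the interaction was the same on each of the 3 slides for 623 of the lost rises, 502 of the gained rises and 650 of the gained falls. These genes were picked by the interaction over the same arrays, so this agreement was largely fixed beforehand and is no separate support.

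**Figure D1:**
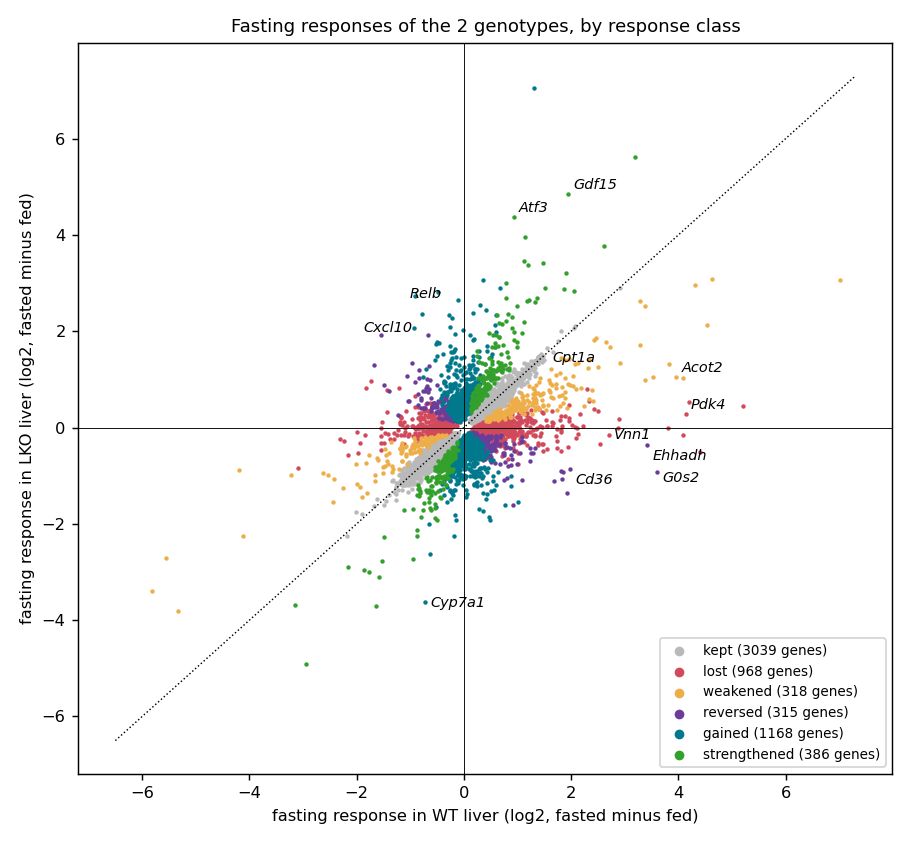
Fasting response in WT (x axis, log2) against the response in LKO (y axis, log2) for every gene in a class, 1 point per gene, with the dotted line marking equal responses. Lost responses lie along the horizontal axis, gained responses along the vertical axis and the 3039 kept responses along the dotted line, and named genes are labelled.

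The share of WT responses that differed in LKO grew with the size of a rise but not of a fall. Among WT rises under 0.5 on the log2 scale, 26.7% of 2102 had a called interaction, against 32.6% of 1235 from 0.5 to 1, 38.8% of 516 from 1 to 2 and 43.8% of 128 at 2 or more. Among WT falls the shares were 21%, 21.1%, 21.8% and 15.6%, the last over 122 genes. The precision fell over the same bins, as the median SE of the interaction went from 0.11 to 0.42 for rises and from 0.10 to 0.46 for falls. The WT response also enters the interaction with a minus sign, so error that enlarges a WT response pushes the interaction the opposite way. No test of the trend was made.

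**Figure D2:**
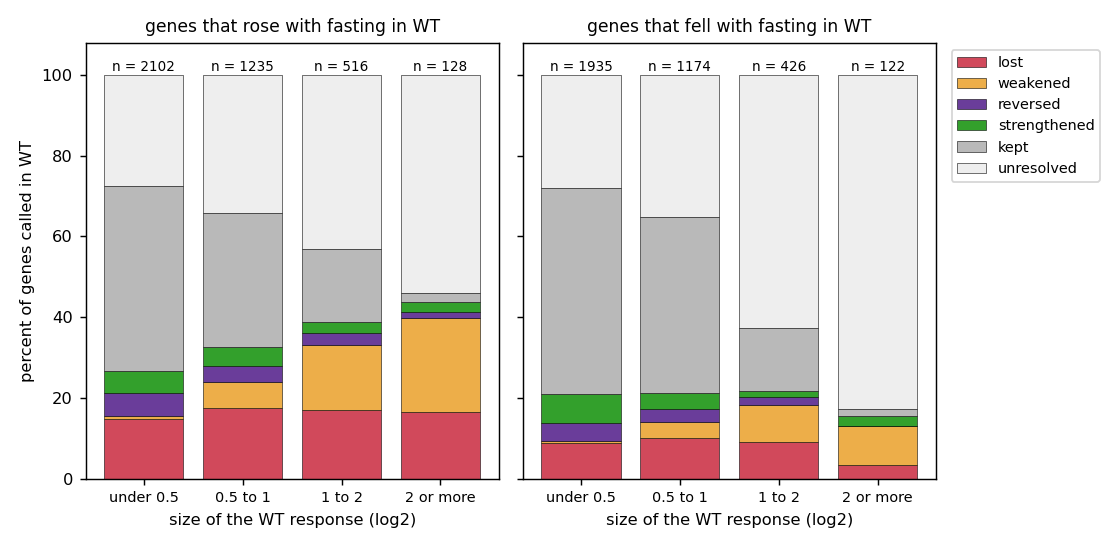
Share of the genes called in WT (y axis, percent) in each class, by size of the WT response (x axis, log2), for rises on the left and falls on the right, with the number of genes above each bar. The kept share of rises shrinks from 45.8% to 2.34% as the response grows, while the unresolved share grows from 27.5% to 53.9%.

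Most of the difference lay in the fasted state. The fed livers of the 2 genotypes differed in 692 genes (4.02%) and the fasted livers in 6515 (37.9%). Of the 636 lost rises, 585 were lower in fasted LKO than in fasted WT, while 69 were lower in fed LKO, all of which were also lower when fasted. Only 19 lost rises were already higher in fed LKO, and 13 of them were not called lower when fasted. Of the 512 gained rises, 476 were higher in fasted LKO, and of the 656 gained falls 607 were lower there. These gaps add up to the interaction and are given as a description.

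**Figure D3:**
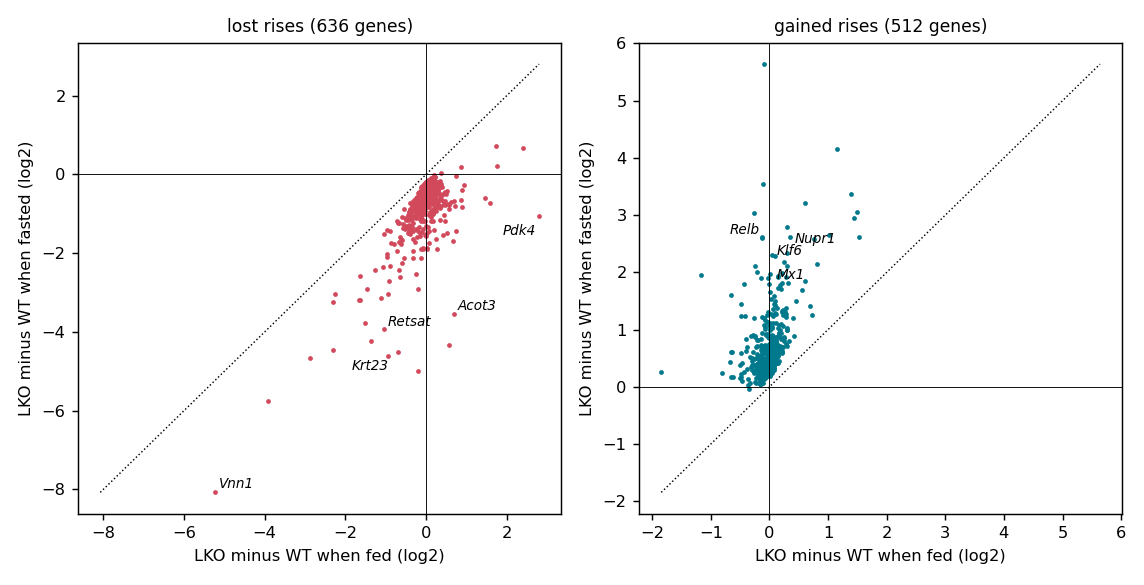
Difference between LKO and WT when fed (x axis, log2) against the difference when fasted (y axis, log2), 1 point per gene, for lost rises on the left and gained rises on the right. Most points lie near 0 on the x axis and away from 0 on the y axis, while Pdk4 lies right of 0 and Vnn1 far left of it.

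Over all classes, 316 genes were lower in LKO in both states, including the 69 lost rises above, and 152 of the 316 also had a called interaction. In 53 the fasting rise was called in both genotypes with no called interaction, so that LKO responded from a lower level. Acadl, the long-chain acyl-CoA dehydrogenase, rose by 1.30 in WT and 1.18 in LKO and was a kept rise, yet it was lower in LKO by 1.02 when fed and 1.14 when fasted. Cyp4a10, a fatty acid omega-hydroxylase, rose by 5.71 (SE 0.57) in WT and 4.28 (SE 0.52) in LKO, with an interaction of -1.44 (SE 0.77, adjusted p = 0.211), and its LKO minus WT differences were -3.54 when fed and -4.98 when fasted. Other kept probes of Cyp4a10 gave more negative interactions, at -2.172 and -2.585. The interaction was called in none of the 32 other settings (limma, adjusted p from 0.0662 to 0.364), so a weaker LKO rise is neither shown nor excluded.

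The lists of liver pathways differed in how many members had a called interaction, and each is read against the 7.5% of all genes with a positive and the 11.1% with a negative one. Counts of rises and falls are read against all genes, of which 23.1% rose and 21.3% fell in WT. In LKO 23% of all genes rose and 26.7% fell. Medians of all genes were 0.01 for the WT response and -0.04 for the LKO response.

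**Figure D4:**
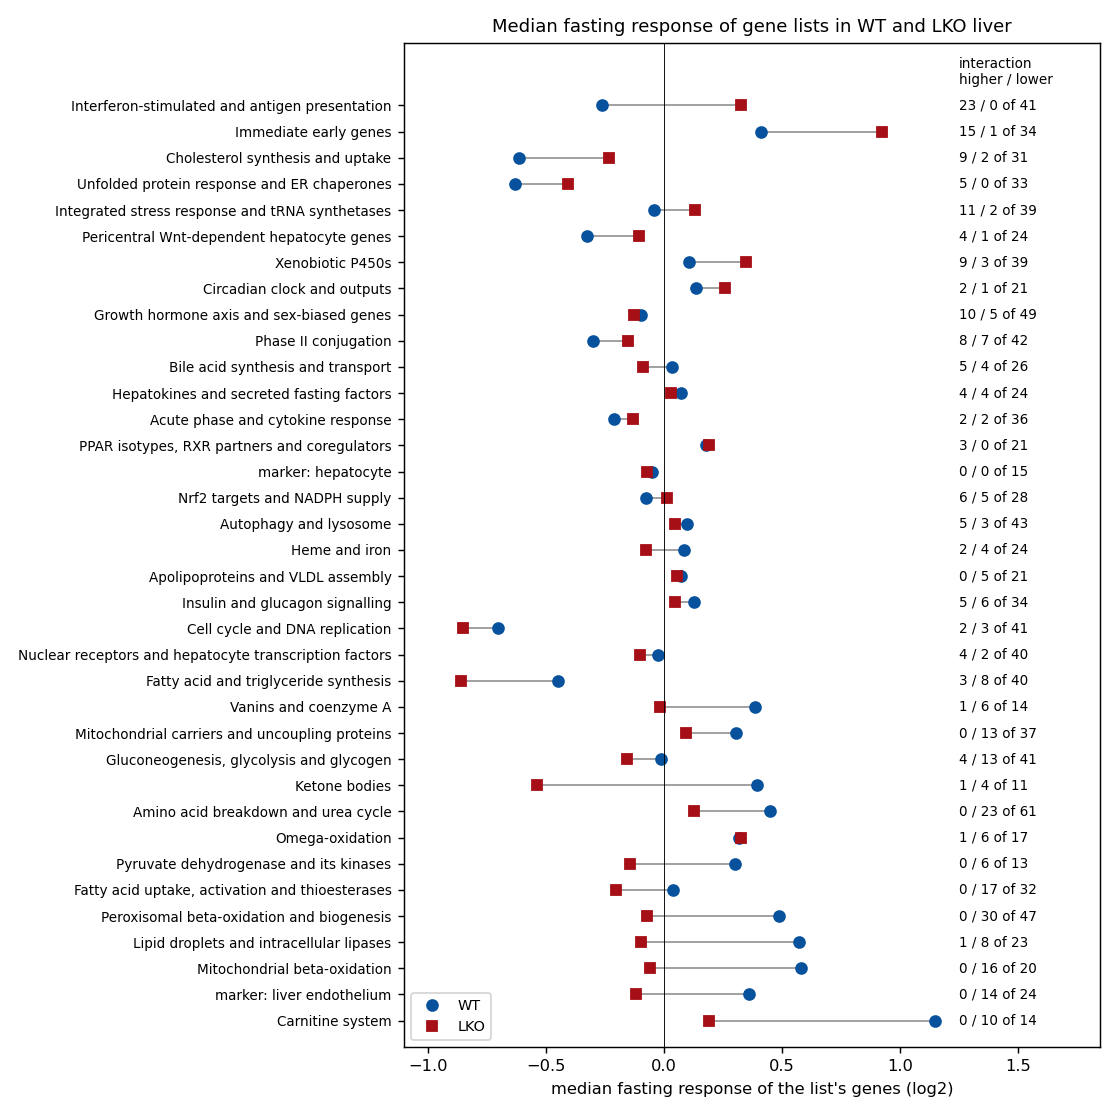
Median fasting response of the genes of each list (x axis, log2) in WT (circles) and LKO (squares), with the number of genes with a called positive and negative interaction at the right. The carnitine, mitochondrial and peroxisomal lists have high WT medians and LKO medians near 0, and the interferon list lies below 0 in WT and above 0 in LKO.

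Mitochondrial beta-oxidation, which shortens fatty acids to acetyl-CoA, lost most of its response. Of 20 genes, 18 rose and 2 fell in WT (median 0.58), and 4 rose and 5 fell in LKO (median -0.06). The interaction was negative for 16 and positive for none, and over the other processing settings 14 to 18 members were negative. The 16 comprised 10 lost rises, 3 weakened rises and 3 rises that became falls. The mean level of the list ran from 5.81 to 6.10 in fed WT, 6.52 to 6.63 in fasted WT, 5.43 to 5.61 in fed LKO and 5.43 to 5.58 in fasted LKO, so only the fasted WT mice stood above all others.

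Hadha, the alpha subunit of the trifunctional protein, was at 2.30, 2.13, 2.16, 2.41 and 2.03 in fed WT and at 3.08, 3.10, 3.22, 3.11 and 3.13 in fasted WT. In LKO its lowest, median and highest levels were 1.63, 1.77 and 1.87 when fed and 1.45, 1.63 and 1.83 when fasted. The fed and fasted groups separated in WT and overlapped in LKO. The interaction was -1.03 (SE 0.10, adjusted p = 1.05e-06), a 2.04-fold smaller response.

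Others followed with different remainders. Hsd17b10, which oxidises hydroxyacyl-CoA, rose by 1.66 in WT against 0.09 in LKO (not called), and Etfdh, which passes electrons from these dehydrogenases to ubiquinone, by 1.09 against -0.08. Acadm, the medium-chain acyl-CoA dehydrogenase, kept part of its rise, at 1.48 in WT and 0.44 in LKO, and so did Hadhb, the partner of Hadha, at 1.28 and 0.29. Eci1, an enoyl-CoA isomerase, rose by 1.08 in WT and fell by 0.20 in LKO.

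The carnitine system carries fatty acids into mitochondria, and its members split at the first step. Of 14 genes, 10 had a negative interaction and none a positive one, with medians of 1.15 in WT and 0.19 in LKO. Cpt1a, the liver form of the outer-membrane transferase, was at 5.99, 5.77, 6.05, 6.21 and 5.84 in fed WT and at 7.68, 7.66, 7.44, 7.42 and 7.41 in fasted WT. In LKO it ran from 5.46 through a median of 5.57 to 5.85 when fed and from 7.05 through 7.20 to 7.51 when fasted. Fed and fasted mice separated in both genotypes, and the interaction was 0.11 (SE 0.14, adjusted p = 0.643), a kept rise.

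Most other members depended on the genotype, though the list held 2 kept rises, Cpt1a among them, and 2 unresolved genes. Cpt1b, the muscle form of that transferase, rose by 2.51 in WT against 0.35 in LKO (interaction -2.16, SE 0.25, adjusted p = 6.31e-06). Cpt2, the inner-membrane transferase, rose by 1.03 in WT and changed by -0.01 in LKO. Slc25a20, the carnitine-acylcarnitine carrier, rose by 1.26 and 0.47, and Crat and Crot, which move acyl groups between carnitine and coenzyme A in mitochondria and peroxisomes, rose by 2.25 and 1.43 in WT against 0.45 and 0.04 in LKO.

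Peroxisomal beta-oxidation and biogenesis, which handle very long and branched fatty acids, had 47 genes measured. In WT 33 rose and 3 fell (median 0.49), in LKO 14 rose and 18 fell (median -0.07), and the interaction was negative for 30 and positive for none. These included 8 lost rises, 8 weakened rises and 10 rises that became falls. Ehhadh, the peroxisomal bifunctional enzyme, was at 4.22, 3.99, 4.34, 4.30 and 4.10 in fed WT and at 7.47, 7.68, 7.77, 7.46 and 7.66 in fasted WT. In LKO its lowest, median and highest levels were 3.69, 4.28 and 4.54 when fed and 3.55, 3.84 and 4.03 when fasted. The fed levels of the genotypes overlapped, and the fasted levels were apart by 3.78 on average. The interaction was -3.79 (SE 0.17, adjusted p = 2.61e-11).

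Hacl1, which splits 2-hydroxy fatty acids, rose by 1.00 in WT and fell by 0.77 in LKO. Abcd3, a transporter of fatty acids into the peroxisome, rose by 0.38 and fell by 0.49. Pex11a, which promotes peroxisome division, rose by 1.20 in WT against 0.18 in LKO. Abcd2, a related transporter, was well above background in no LKO mouse, so its LKO response has no measured size, and fasted WT exceeded fasted LKO at least 5.41-fold.

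Acyl-CoA thioesterases release fatty acids from coenzyme A and had some of the strongest responses in WT. Acot3 rose by 4.08 in WT and changed by -0.15 in LKO (interaction -4.24, SE 0.70, adjusted p = 0.000317). Acot1, Acot2 and Acot5 rose in both genotypes, by 3.52, 3.95 and 4.09 in WT and by 1.05, 1.04 and 1.04 in LKO. Another kept probe of Acot5 gave 0.79 in WT and -0.29 in LKO, with an interaction of -1.08. The Acot genes are near-identical neighbours, so their probes may read each other. Over the 32 genes of fatty acid uptake, activation and thioesterases, 17 had a negative interaction and none a positive one.

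Uptake and storage genes included several that turned over. Cd36, a fatty acid transporter, was at 0.06, -0.28, -0.35, -0.10 and 0.15 in fed WT and at 1.86, 1.58, 2.24, 1.41 and 2.28 in fasted WT. LKO levels ran from 0.14 through 0.43 to 1.02 when fed and from -0.83 through -0.46 to 0.15 when fasted. All fasted WT mice were above all fed WT mice, the LKO groups overlapped slightly with the fasted mice lower, and the interaction was -2.84 (SE 0.26, adjusted p = 6.07e-07).

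G0s2, an inhibitor of adipose triglyceride lipase, was at 2.96, 1.82, 1.95, 2.35 and 2.75 in fed WT and at 6.62, 6.48, 5.90, 5.44 and 5.37 in fasted WT. In the LKO mice, levels went from 3.17 through 4.13 to 5.50 when fed and from 2.75 through 3.36 to 3.79 when fasted. All fed LKO mice lay above all fed WT mice, and all fasted LKO mice lay below all fasted WT mice. The interaction was -4.53 (SE 0.53, adjusted p = 8.14e-06), and LKO was higher by 1.86 when fed and lower by 2.66 when fasted.

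For other genes of lipid storage and transport the interaction was not called or the response differed in kind. Cidec, which enlarges droplets, rose by 5.33 in WT and 4.25 in LKO. Its interaction of -1.07 (SE 0.40, adjusted p = 0.0652) was left unresolved, and it was called in 5 of the 32 other settings, with adjusted p from 0.0254 to 0.122. Angptl4, a secreted inhibitor of lipoprotein lipase, rose by 1.44 and 1.28 (interaction -0.16, SE 0.28, adjusted p = 0.756). Fabp1, the main fatty acid binding protein of liver, Acsl5, an acyl-CoA synthetase, and Gpd1, the cytosolic glycerol-3-phosphate dehydrogenase, were gained falls, at -1.09, -1.30 and -1.19 in LKO against -0.10, -0.19 and -0.02 in WT. Acsl1, the main liver acyl-CoA synthetase, rose by 0.86 in WT and fell by 0.42 in LKO.

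Ketone body genes gave 1 positive and 4 negative interactions among 11. Acat1, the mitochondrial thiolase, rose by 1.07 in WT and changed by -0.17 in LKO (interaction -1.25, SE 0.11, adjusted p = 4.44e-07). Fgf21, a liver hormone of fasting, rose by 5.53 (SE 0.56) in WT and 6.00 (SE 0.51) in LKO, with the fed LKO level well above background in 1 of 6 mice only, and was lower in LKO by 2.75 when fasted. Its interaction of 0.47 (SE 0.76, adjusted p = 0.729) turned to -1.64 (adjusted p = 0.00686) with normexp background correction.

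Pdk4, the kinase that shuts off pyruvate dehydrogenase, was at -0.90, -1.66, -0.59, -1.53 and -0.81 in fed WT and at 2.79, 3.75, 3.41, 2.94 and 2.29 in fasted WT. Levels in LKO ran from 0.87 through 1.70 to 2.69 when fed and from 1.81 through 1.90 to 2.38 when fasted. The fed LKO mice were above all fed WT mice, by 2.80 on average, so this lost rise lay largely in the fed level. Its interaction was -3.85 (SE 0.41, adjusted p = 2.74e-06). Vnn1, a pantetheinase of coenzyme A turnover, showed the opposite placing, with WT levels of 2.25, 0.64, 1.47, 2.46 and 1.86 when fed and 4.46, 4.29, 4.61, 4.29 and 4.54 when fasted. Vnn1 ran from -5.26 through -3.21 to -2.83 in fed LKO and from -5.05 through -3.70 to -2.54 in fasted LKO, well above background in 5 of 6 mice each time. LKO therefore lay below WT by 5.23 when fed and 8.07 when fasted.

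**Figure D5:**
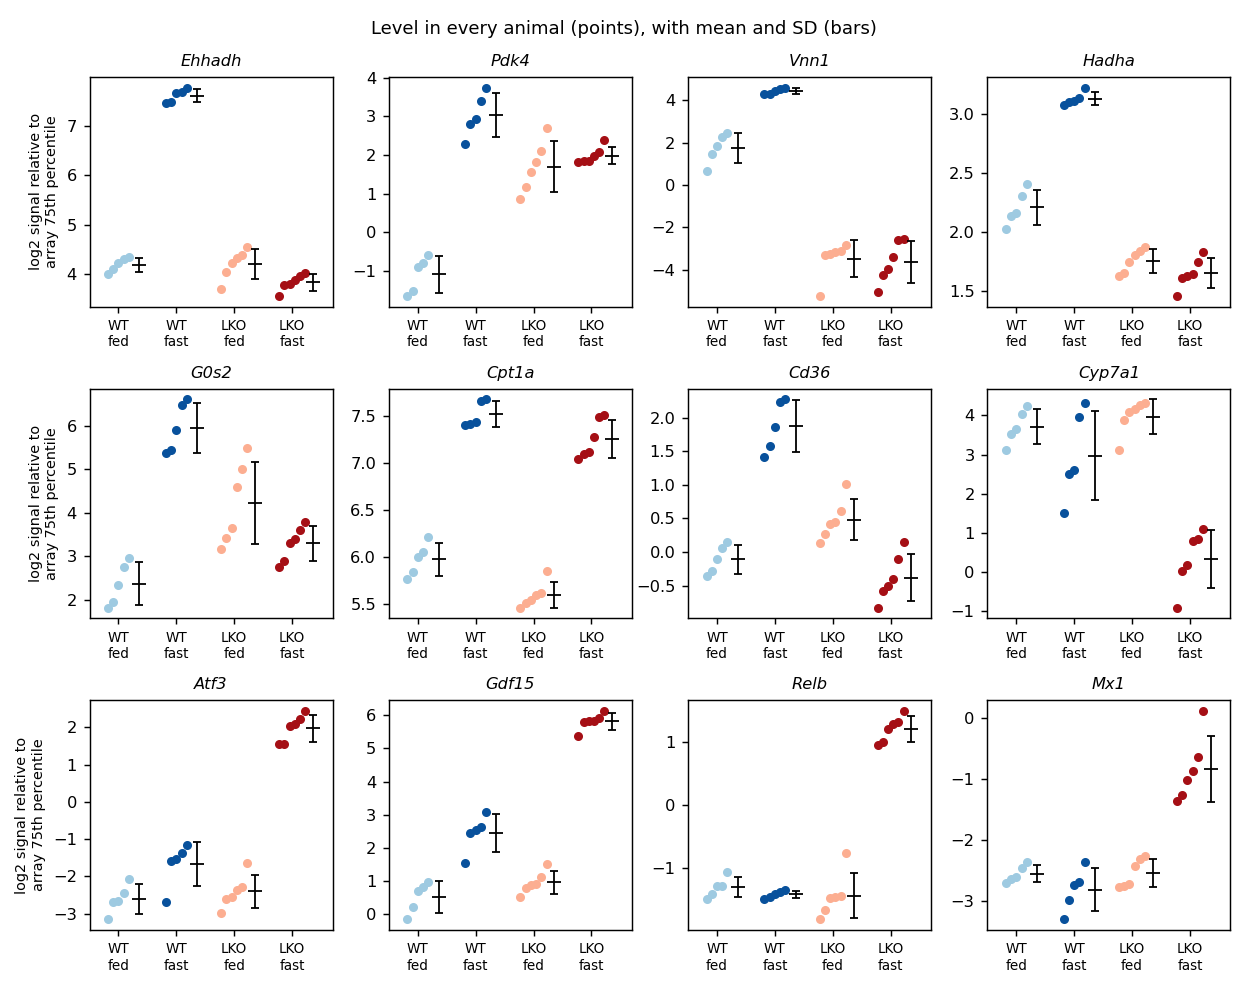
Level of 12 genes in every animal (points; y axis, log2 signal relative to the 75th percentile of the array) in the 4 groups (x axis), with the mean and SD as bars. Ehhadh and Hadha are raised in fasted WT only, Cpt1a is raised in both genotypes, and Atf3, Relb and Mx1 are highest in fasted LKO.

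Further lost rises of large size were Krt23, a keratin, at 4.19 in WT and 0.53 in LKO, Retsat, a retinol saturase, at 2.54 and -0.35, and Rab30, a small GTPase, at 2.87 and 0.00. All 3 were lower in LKO when fed as well, by 0.96, 1.05 and 1.36. Amino acid breakdown and the urea cycle had 23 negative and no positive interactions among 61 genes, with 12 kept rises, and mitochondrial carriers had 13 negative and none positive among 37. Got1, the cytosolic aspartate aminotransferase, rose by 2.31 in WT and 1.24 in LKO. Slc25a42, the mitochondrial coenzyme A carrier, rose by 1.07 in WT and fell by 0.30 in LKO.

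Cholesterol synthesis and uptake genes, which SREBP2 governs, fell in WT more than in LKO. Of 31 genes, 19 fell and 5 rose in WT (median -0.61), 15 fell and 8 rose in LKO (median -0.23), and the interaction was positive for 9 and negative for 2. Sqle and Idi1, enzymes of the middle of the pathway, fell by 1.18 and 1.06 in WT and had changes of -0.16 and 0.03 in LKO, neither called. Cyp51, a later demethylase, fell by 0.81 in WT and rose by 0.62 in LKO.

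Of 40 genes of fatty acid and triglyceride synthesis, 24 fell and 10 rose in each genotype, against 21.3% of all genes lower in WT and 26.7% in LKO. The interaction was positive for 3 and negative for 8, with 5 strengthened falls among them, and the negative ones numbered 4 with median centring and 4 without a filter on dim probes. Fasn, the fatty acid synthase, fell by 2.84 in WT and 2.92 in LKO (interaction -0.08, SE 0.37, adjusted p = 0.915). Mlxipl, which encodes the glucose-sensing factor ChREBP, was a kept fall at -1.40 and -1.41. Pck1, the committing enzyme of gluconeogenesis, was a kept rise at 0.97 and 0.94, and Insig2, which retains SREBP in the endoplasmic reticulum, was another at 2.06 and 2.06. Gluconeogenesis, glycolysis and glycogen together gave 4 positive and 13 negative interactions among 41 genes, the positive ones being 2 with the replicate number as a block and 1 without a filter on dim probes.

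Cyp7a1, whose hydroxylase sets the pace of bile acid synthesis, had the most negative interaction of the 656 gained falls. Its level was 4.02, 3.65, 3.52, 4.25 and 3.10 in fed WT and at 3.95, 2.59, 2.51, 1.51 and 4.31 in fasted WT. LKO levels ran from 3.12 through 4.13 to 4.31 when fed and from -0.91 through 0.49 to 1.09 when fasted. The WT groups overlapped widely, the LKO groups did not, and the interaction was -2.89 (SE 0.60, adjusted p = 0.00206). Cyp8b1, the sterol 12-hydroxylase that sets bile acid composition, rose by 2.50 in WT and 1.26 in LKO.

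Interferon-stimulated genes, which cells raise against viruses, fell more often than they rose in WT and rose more often than they fell in LKO. Of 41 interferon-stimulated and antigen presentation genes, 2 rose and 14 fell in WT (median -0.26), against 23.1% and 21.3% of all genes. In LKO 21 rose and 6 fell (median 0.33), against 23% and 26.7% of all genes. The interaction was positive for 23, with 18 to 27 over the other processing settings, and negative for none in any of them. The 23 comprised 12 gained rises, 5 lost falls, 3 falls that became rises, 2 strengthened rises and 1 gene called for the interaction alone. The mean level of the list was 2.40 to 2.55 in fed WT, 2.04 to 2.23 in fasted WT, 2.34 to 2.74 in fed LKO and 2.82 to 3.49 in fasted LKO, and the fasted LKO mice overlapped no other group.

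Mx1, an antiviral GTPase, was at -2.71, -2.46, -2.37, -2.64 and -2.60 in fed WT and at -2.73, -2.99, -2.36, -2.69 and -3.30 in fasted WT. In the LKO mice, levels went from -2.77 through -2.57 to -2.26 when fed and from -1.36 through -0.94 to 0.12 when fasted. Only the fasted LKO mice stood apart (interaction 1.96, SE 0.29, adjusted p = 0.000116). Ifit1, an antiviral RNA-binding protein, and Isg15, a ubiquitin-like protein, rose by 1.59 and 0.73 in LKO against changes of -0.19 and -0.37 in WT, and Irf7, which amplifies the interferon response, fell by 0.50 in WT and rose by 0.89 in LKO. The macrophage markers gave 1 positive and 1 negative interaction among 17, and the lymphocyte and neutrophil markers none among 13 and 8.

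Cxcl10 and Ccl2, a pair of chemokines, and Relb also had positive interactions. Cxcl10, which attracts T cells, was at -0.22, -0.07, 0.34, 0.13 and -0.21 in fed WT and at -0.78, -0.60, -0.44, -0.57 and -1.03 in fasted WT. Levels in LKO ran from -0.54 through -0.11 to 0.24 when fed and from 1.40 through 1.65 to 2.56 when fasted, a fall that became a rise (interaction 2.61, SE 0.28, adjusted p = 2.74e-06). Ccl2, which attracts monocytes, fell by 0.91 in WT and rose by 0.94 in LKO, while for Cxcl1, which attracts neutrophils, an interaction of 2.15 (SE 0.82) was not called (adjusted p = 0.0725). Relb, an NF-kappaB subunit, was at -1.29, -1.40, -1.29, -1.48 and -1.05 in fed WT and at -1.49, -1.46, -1.38, -1.40 and -1.34 in fasted WT. In LKO Relb ran from -1.81 through -1.47 to -0.76 when fed and from 0.96 through 1.24 to 1.5 when fasted, above every other mouse (interaction 2.76, SE 0.19, adjusted p = 3.36e-08). The acute phase list gave 2 positive and 2 negative interactions among 36 genes, or 10 and 2 without fed LKO replicate 3.

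Immediate early genes, which respond to growth factors and stress within minutes, rose in both genotypes and further in LKO. Of 34, 15 rose and 2 fell in WT (median 0.41), against 23.1% and 21.3% of all genes. In LKO 25 rose and 0 fell (median 0.93), against 23% and 26.7% of all genes. The interaction of the list was positive for 15 and negative for 1, which was Gadd45g. The mean level was 0.42 to 0.69 in fed WT, 0.97 to 1.28 in fasted WT, 0.40 to 0.85 in fed LKO and 1.68 to 1.99 in fasted LKO, and the fasted groups did not overlap. Nr4a1, an orphan nuclear receptor, was at -0.34, -0.16, -0.26, -0.55 and 0.05 in fed WT and at -0.04, 0.42, 0.17, -0.01 and -0.07 in fasted WT. The LKO mice ranged from -0.81 through -0.36 to -0.07 when fed and from 2.12 through 2.79 to 3.05 when fasted. Nr4a1 was thus a gained rise (interaction 2.72, SE 0.23, adjusted p = 2.26e-07).

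Fos, a subunit of the AP-1 factor, rose by 1.11 in WT and 3.46 in LKO, and Klf6, a zinc finger factor, had a change of 0.29 in WT and rose by 2.54 in LKO. Egr1, another early factor, rose by 2.58 and 4.29, with adjusted p = 0.0595 for an interaction of 1.70 (SE 0.62). It was called in 5 of the 32 other settings (limma, adjusted p from 0.0191 to 0.111). Among these were the settings without fed LKO replicate 3, at 1.96 (adjusted p = 0.0191), and without fed WT replicate 3, at 1.89 (adjusted p = 0.0476).

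The integrated stress response, in which general translation is slowed and ATF4 is made, had 11 positive and 2 negative interactions among 39 genes. Atf3, a factor downstream of ATF4, was at -2.69, -2.44, -2.66, -3.15 and -2.06 in fed WT and at -1.60, -1.52, -1.38, -2.70 and -1.15 in fasted WT. In LKO it ran from -2.98 through -2.46 to -1.63 when fed and from 1.54 through 2.06 to 2.45 when fasted, well above all other mice (interaction 3.45, SE 0.37, adjusted p = 3.15e-06). Gdf15, a stress hormone that curbs appetite, was at 0.83, 0.72, -0.14, 0.99 and 0.21 in fed WT and at 2.63, 3.09, 2.55, 1.55 and 2.45 in fasted WT. In LKO Gdf15 ran from 0.52 through 0.91 to 1.53 when fed and from 5.37 through 5.83 to 6.14 when fasted (interaction 2.92, SE 0.34, adjusted p = 7.1e-06).

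Other members did not form a uniform set. Ddit3, which encodes CHOP, fell by 0.66 in WT and rose by 1.29 in LKO, while another kept probe of it gave -0.61 and 0.325. Mthfd2, a mitochondrial folate enzyme, fell by 1.84 in WT and had a change of 0.82 in LKO that was not called. Trib3, a pseudokinase, rose by 2.04 and 2.97 (interaction 0.93, SE 0.33, adjusted p = 0.0523), an interaction called in 12 of the 32 other settings (adjusted p from 0.025 to 0.102). Asns, the asparagine synthetase, rose by 1.72 and 1.22 (interaction -0.49, SE 0.87, adjusted p = 0.753). Nupr1, a stress-induced chromatin protein, had a change of -0.50 in WT and rose by 1.77 in LKO (adjusted p = 0.0287 for the interaction of 2.27), or 1.86 with adjusted p = 0.0549 without fed WT replicate 5. The unfolded protein response list fell in both genotypes, with 27 and 22 of 33 genes lower, against 21.3% and 26.7% of all genes. It gave 5 positive interactions, or 13 without fed LKO replicate 3.

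Promoters were searched because groups of genes moved together. The window was 250 bases before to 50 after the start in the RefSeq promoter table (build GRCm38.p6), which matched 12191 of the 17206 genes, and both strands were read. The PPAR element DR1, written as AGGNCA repeated in the same direction after 1 base, was in 0.345% of all tested promoters, in 0 of 445 lost rises and in 1 of 156 weakened rises. At that share few matches were to be expected in 445 promoters, so the count does not show that lost rises lack PPAR elements. The cAMP response element TGACGTCA was in 2.92% of all, in 3.6% of lost rises, 3.85% of kept rises, 3.49% of gained rises, 6.25% of strengthened rises (9 of 144) and 5.77% of weakened rises (9 of 156), so that rises larger and smaller in LKO had like shares. The ATF4 type element TGATGNAAT was in 0.574% of all and in 3 of 373 gained rises. Matches of different motifs overlapped in 0 of these promoters, and the shares were not tested. Only exact matches in the first listed promoter of a gene were counted, though 2313 genes had more than 1. Sites outside the window were not searched.

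Stretches of 4 promoters of genes with higher responses in LKO are shown, each on the gene's own strand with the motif in capitals and 24 bases on either side. They are Gdf15 (chr8:70632475-70632535, minus strand, a DR1 at -55 to -43 from the start), Nupr1 (chr7:126625549-126625605, minus strand, TGATGNAAT read on the opposite strand at -111 to -103), Dusp8 (chr7:142095360-142095415, minus strand, TGACGTCA at -107 to -100) and Btg2 (chr1:134079290-134079345, minus strand, TGACGTCA at -166 to -159).
Gdf15: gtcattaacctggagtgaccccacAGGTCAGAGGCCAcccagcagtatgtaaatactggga
Nupr1: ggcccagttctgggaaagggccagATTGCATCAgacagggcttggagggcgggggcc
Dusp8: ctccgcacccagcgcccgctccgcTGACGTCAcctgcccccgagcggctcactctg
Btg2: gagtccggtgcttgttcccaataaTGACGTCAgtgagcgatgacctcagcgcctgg
Dusp8, a phosphatase that switches off stress kinases, rose by 0.79 in WT and 3.01 in LKO (adjusted p = 0.000984). Its promoter held another TGACGTCA at -63 to -56, outside the stretch shown. Btg2, an antiproliferative early gene, rose by 1.32 and 2.61 with adjusted p = 0.0473, a call that many of the other settings did not make, among them the slide block (adjusted p = 0.0633). Gdf15 carried a DR1, and its response was larger in LKO. Genes with a DR1 went both ways. Fabp1 (DR1 at -67 to -55) and Apoc2 (-122 to -110) had lower responses in LKO, with interactions of -0.99 and -0.46. Bco1 (-56 to -44) had a higher one, with an interaction of 1.51.

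Markers of liver endothelium moved with the lost responses. Of 24, 14 rose and none fell in WT (median 0.36), against 23.1% and 21.3% of all genes. In LKO 2 rose and 9 fell (median -0.12), against 23% and 26.7% of all genes. These markers had a negative interaction in 14 cases (10 to 17 over the other settings) and a positive one in none. Their mean level was 0.83 to 1.30 in fed WT, 1.27 to 1.66 in fasted WT, 0.80 to 1.34 in fed LKO and 0.85 to 1.15 in fasted LKO, so the fasted groups did not overlap. Clec4g, a lectin of sinusoidal endothelium, rose by 0.41 in WT and fell by 0.53 in LKO, and Lyve1, a hyaluronan receptor, rose by 1.65 and 0.89. Another kept probe of Clec4g gave 0.60 in WT and 0.02 in LKO, without the fall. The 15 hepatocyte markers gave no called interaction, with mean levels of 9.34 to 9.40 in fasted WT and 9.31 to 9.42 in fasted LKO. In whole liver, fewer cells of a type and less RNA per cell cannot be told apart, and the part of endothelial RNA in the other results was not tested.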

How the data were processed

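Per the file headers, the deposited scanner files hold Cy3 fluorescence intensity made with Agilent Feature Extraction 10.10.1.1, background-subtracted and detrended, with no scaling between arrays. A second table deposited by the authors gives log2 values for 31356 probes, made with limma per the submitters' processing notes. Here, log2 processed signals were set relative to the 75th percentile of each array, both arrays of an animal were averaged, and probes well above background in at least 5 of 22 animals were kept (28115). Each gene took its brightest probe. Signals not above background are surrogates, which widens the error of dim genes. The labels number the animals as separate mice.

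A model with 1 mean per group was fitted with limma 3.58.1 in R 4.3.3 over 17206 genes, with Benjamini-Hochberg adjustment. In simulated data it recovered 42.6% of interactions of 0.5 on the log2 scale, 68.2% of 1 and 92.4% of 2, with 13 calls among 17006 unchanged genes. There, 68, 66 and 66 genes were given these sizes, with independent normal noise. In the real data 3197 genes were called. The Benjamini-Hochberg cutoff depends on the share of changed genes, so these rates do not carry over directly.

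Members, lists and named genes were chosen with earlier results of these data known. Named genes are a panel of 26, the 6 largest interactions per class and direction and the 4 largest per list; further list members, and Gm15441, Unc79, Hcar2, Bex2 and Gm2990, were chosen after their values were seen. Some genes these rules select are not reported here. Alternatives were background correction, scaling, the authors' table, filters, probe averaging, blocks, thresholds and leaving out each animal. Same-numbered animals did not deviate together (r from -0.181 to 0.177), so the numbers were not taken as pairs.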

Additional observations from a re-analysis of the deposited data

Results flagged for a closer look

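In 4 of the 64 gene and group combinations checked, 1 mouse lay far from the rest of its group; chance alone gives about 1 in 20. Fed LKO replicate 3 was lowest for Vnn1 (-5.261), highest for Relb (-0.764) and lowest for Cyp7a1 (3.12). Fed WT replicate 5 was highest for Fgf21 (-0.306). Values are log2 levels.

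The fasting response differed between genotypes by limma's interaction for 3197 genes. Among the genes shown by animal, the LKO response minus the WT response was -3.79 for Ehhadh, -3.85 for Pdk4, -2.85 for Vnn1, -1.03 for Hadha, -2.84 for Cd36, -4.53 for G0s2 and -2.89 for Cyp7a1. It was 2.76 for Relb, 2.72 for Nr4a1, 2.61 for Cxcl10, 1.96 for Mx1, 3.45 for Atf3 and 2.92 for Gdf15.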

How the results depend on the processing

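At an adjusted p below 0.01, positive interactions numbered 633 and negative ones 890, with 342 lost rises, 150 lost falls, 109 weakened, 119 reversed and 135 strengthened responses, 334 gained rises and 301 gained falls. With an interaction of at least 2-fold these were 247, 300, 118, 53, 50, 94, 57, 97 and 74. Median centring gave 1208 negative interactions, 583 gained rises and 386 gained falls, and 402 of the 636 lost rises stayed lost rises. Without a filter on dim probes 194 responses were weakened and 252 strengthened. A narrower interval left 1279 kept responses, and one of 2-fold gave 3772. Leaving out 1 animal at a time gave 1103 to 1579 positive and 1642 to 2424 negative interactions, 531 to 731 lost rises, 259 to 399 lost falls, 448 to 585 gained rises and 547 to 832 gained falls, all within 1.5 times the reported counts. With the replicate number as a block there were 1155 positive and 1683 negative interactions. Fgf21 reversed under normexp background correction, to -1.64 (adjusted p = 0.00686), with its fed LKO signal above background in 1 of 6 mice; the cause was not tested. Of 178 named genes with a call, 140 kept it in every setting of processing, filter, block and left-out animal in which they were tested. The stricter thresholds were not part of this count. Small differences were limited by signal: genes called in 1 genotype only are not shown to differ unless the interaction was called, and dim genes had wide errors.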

Other observations

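Genes of defence against oxidants, many of them targets of Nrf2, gave 6 positive and 5 negative interactions among 28. Hmox1, which breaks down heme, rose by 1.18 in WT and 2.62 in LKO, and Srxn1, the sulfiredoxin, by 0.90 and 2.29. Gclc, the catalytic subunit of glutathione synthesis, had a change of -0.14 in WT and rose by 1.05 in LKO. Cat, the peroxisomal catalase, moved the other way, with a change of -0.04 in WT and a fall of 0.69 in LKO. Xenobiotic P450s gave 9 positive and 3 negative interactions among 39. Cyp1a2 fell by 1.48 in WT and changed by -0.12 in LKO, which was not called, and Cyp3a11 had a change of 0.03 in WT and rose by 0.68 in LKO, although its near-identical neighbours may share its probe. Hsd3b5, a male-biased steroid enzyme, fell by 5.55 in WT and by 2.71 in LKO.

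Several dim genes were not well above background in whole groups and have bounds only; they were chosen after their values were seen. Fasted WT exceeded fed WT at least 18.6-fold for Gm15441 and at least 5.23-fold for Unc79, and exceeded fasted LKO at least 22.4-fold and 6.51-fold. Fasted LKO exceeded fasted WT at least 7.16-fold for Hcar2, a receptor for ketone bodies and niacin, and at least 3.27-fold for Bex2. Gm2990, a predicted gene, rose at least 32.3-fold with fasting in LKO, where all 6 fasted mice and none of the fed ones were well above background, and was well above background in 2 of 5 fasted WT mice. Cyp4a14, an omega-hydroxylase, was well above background in no fed LKO mouse and rose there at least 4.17-fold, so the size of its interaction is not measured.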
